A study of Mus musculus with 4 samples.

Results

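Of 39427 probes on a mouse expression array, 18371 were silent on the control array, that is, not well above background by the scanner software's flag. Among these, 1623 lay within 20 kb downstream of a probe of another gene name that was well above background there, on the same strand. These 1623 silent probes just downstream of expressed genes carried 1507 gene names, and their nearest expressed upstream probes carried 1401. The members were selected on measured values, the detection flags of the control array, together with the probe positions of the array annotation (mouse build mm9). Distance was counted between the facing ends of the 2 probes, not from a gene end.

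The RNA came from NIH-3T3:Per2-Luc cells, a mouse embryo fibroblast line that carries luciferase driven by the Per2 promoter. Cells received a 10 min pulse of 5 mM H2O2 (the cOS-pulse, for critical oxidative stress) and were taken 4 h, 20 h or 32 h later, or had their medium exchanged for fresh medium without H2O2 (0 mM, labelled 4 h) as the control. There was 1 array for each of the 4 conditions, so no difference below has a replicate check and no test was run. The only control was the one labelled 4 h, so at 20 h and 32 h the pulse cannot be told apart from the time since the medium change.

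Transcription by RNA polymerase II normally ends downstream of the site at which the nascent RNA is cut and polyadenylated, when the exonuclease Xrn2 reaches the polymerase. Under heat, osmotic and oxidative stress, polymerases are known to pass these ends and to copy the DNA behind many genes, which is called read-through or downstream-of-gene transcription. A silent probe behind an expressed gene on the same strand is a place where such RNA could be seen, but it can equally be lit by its own gene, and an array probe does not tell these apart. Labelling started from an oligo-dT primer, so RNA without a poly(A) stretch is poorly copied. Per array, fewer cells with an RNA and less of that RNA per cell cannot be told apart.

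The sequences of the probes show what was measured. The probes are 60 bases long, and probes of such arrays are mostly placed near transcript ends, where the polyadenylation hexamers AATAAA and ATTAAA are found. The last 30 bases are given 5′ to 3′ for 5 silent probes and their expressed upstream probes, with either hexamer in capitals. The first 4 pairs were among the 8 highest rises at 4 h, and Prr22 was among the members that rose nearest to their upstream probe. In mm9 the silent probes lie at chr14:37915367-37915426 (minus strand, 2610528A11Rik), chr15:102284930-102284989 (plus strand, Amhr2), chr7:31374702-31374761 (minus strand, Zbtb32), chr2:25281802-25281861 (plus strand, Fut7) and chr17:56911304-56911363 (plus strand, Prr22).
2610528A11Rik: acctgtaacttcctaatgaaatcatcagga
Ghitm, upstream of 2610528A11Rik: tcctccgttccctctcagcttaagcatgaa
Amhr2: gccgacatgcgtgtggccgacatgcctact
Sp1, upstream of Amhr2: gttccaatccagttatcaccagggctgtga
Zbtb32: tcactatAATAAAgtttcctgtgctccagt
Upk1a, upstream of Zbtb32: gttggctggacacccAATAAAtactggctg
Fut7: gggcttttgacaccacagttcccccaggga
Npdc1, upstream of Fut7: tttggagacaaaagccaATTAAAgtttttt
Prr22: gaaccaccagtgccgcatctcggggtccct
Dus3l, upstream of Prr22: gcctacaagtagccaatacagacAATAAAt

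A hexamer stood anywhere in the 60-base probe for 32 of 153 members that rose at 4 h (20.9%) and for 204 of 1470 that did not (13.9%). It stood in 14.4% of all silent probes and in 16.7% of all probes. The silent probe and its upstream probe rarely shared sequence. The longest run of bases common to both had a median of 6 among the members that rose and 6 among those that did not, and it reached 15 or more in 6 pairs. Of these 6, the pair of AV284310 behind ENSMUST00000110611 shared 37 bases and the interferon genes Ifna2 behind Ifnab shared 22, and both of these members rose. For such pairs, signal from the upstream transcript on the downstream probe cannot be told apart from signal of its own.

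The promoters of member genes showed no motif at a share far from the background. In the 250 bases before the start (RefSeq, GRCm38.p6, which differs from the build of the probes), 3 motifs were searched on both strands. These were TGACNNNGC (the core of the antioxidant response element bound by Nrf2), GAANNTTC (a core of the heat shock element) and TATAAA. Among 87 promoters found for 120 member genes that rose at 4 h, the shares were 10.3%, 6.90% and 14.9%. Among 621 promoters for 820 member genes that did not rise they were 9.5%, 6.92% and 13.7%, and among all 27025 promoters given by RefSeq 10.1%, 6.79% and 12.9%. The 250 bases before 2610528A11Rik, the member with the highest rise, hold the TATA box in capitals (GRCm38.p6, chr14:37110102-37110351, minus strand), and those before Amhr2, the next, hold none of the 3 (chr15:102445117-102445366, plus strand).
2610528A11Rik promoter: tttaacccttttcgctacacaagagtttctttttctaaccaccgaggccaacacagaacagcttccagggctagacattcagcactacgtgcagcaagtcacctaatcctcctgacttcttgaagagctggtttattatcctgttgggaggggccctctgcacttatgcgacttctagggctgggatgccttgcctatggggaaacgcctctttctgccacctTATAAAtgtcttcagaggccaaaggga
Amhr2 promoter: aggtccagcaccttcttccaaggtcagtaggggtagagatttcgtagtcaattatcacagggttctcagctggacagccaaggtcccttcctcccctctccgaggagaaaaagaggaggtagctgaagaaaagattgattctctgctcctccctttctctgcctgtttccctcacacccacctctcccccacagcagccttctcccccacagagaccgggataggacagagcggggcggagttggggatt

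Signals are given as log2 of the processed signal minus the 75th percentile of the same array, so that 0 is a bright probe and the background lies near -7. The lowest signal flagged as well above background on the control was -4.76, and the brightest member there was at -4.33. Because every member is silent on the control, each ratio over the control is a lower bound. It sets the signal at a given hour against the higher of -4.76 and the member's own control signal. A member is said to have risen when it was well above background at that hour and this bound was at least 2-fold. The spot error of the scanner software had a median of 10.1% of the signal on each array and covers the spot only. The share of all probes well above background was 53.4% on the control, 59.1% at 4 h, 55.2% at 20 h and 52.7% at 32 h. All 10 fibroblast markers checked, among them Col1a1, Vim and Fn1, were well above background on all 4 arrays.

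At 4 h after the cOS-pulse, 153 of the 1623 members had risen (9.43%). Over all silent probes the share was 4.96% (911 of 18371). At 20 h, 19 members had risen (1.17%) beside 0.855% of all silent probes, and at 32 h 17 members (1.05%) beside 1.32%. At 4 h, 400 members (24.6%) were well above background, at 20 h 167 (10.3%) and at 32 h 77 (4.74%). Over all silent probes these shares were 15.8%, 7.09% and 4.32%. With an expressed gene only downstream they were 21.0%, 11.3% and 7.25%, which is above the members at 20 h and 32 h. Not detected on any of the 4 arrays were 1138 members.

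The mirrored neighbours give the measure against which the upstream side can be read. Of the silent probes with an expressed gene only upstream, 124 of 1309 rose at 4 h (9.47%), and of those with one only downstream 72 of 1076 (6.69%), a difference of 2.78 percentage points. With expressed genes on both sides the share was 9.24% (29 of 314). With an expressed gene on neither side it was 4.42%, with neither but an expressed gene on the opposite strand it was 6.40%, and with neither but another silent gene upstream 3.43%. At 20 h the upstream side exceeded the downstream side by 0.20 points and at 32 h it lay below it (-0.98 points). Over the 20 kb as a whole, silent probes near expressed genes on either side thus rose more often at 4 h than those with none near. They also rose more often with the gene upstream than with it downstream. Close to the gene this did not hold: within 2 kb of the upstream probe 2.13% rose, and within 5 kb the order of the sides was turned. The median GC content of the probes was 45.0% in both 1-sided classes and 41.7% over all silent probes, and the part of base composition was not tested.

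**Figure D1:**
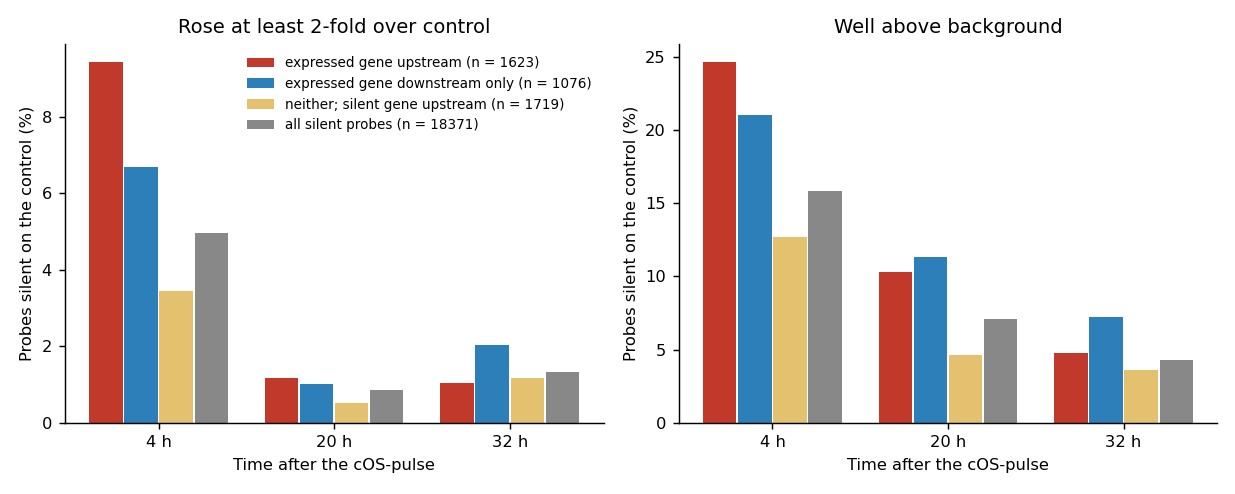
Percent of probes silent on the control that rose at least 2-fold (left) or were well above background (right) at 4 h, 20 h and 32 h after the cOS-pulse, 1 array per hour, so without error bars. Probes with an expressed gene upstream reach 9.43% at 4 h, those with one only downstream 6.69% and all silent probes 4.96%, and all classes lie at or below 2.04% at 20 h and 32 h in the left panel.

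The hours can be compared without the control, which the selection had used. At 4 h, 199 members (12.3%) were at least 2-fold above 20 h, beside 6.39% of all silent probes and 8.64% of those with an expressed gene only downstream. Against 32 h these shares were 8.56% (139 members), 4.54% and 6.41%. Of the 106 members detected at both 4 h and 20 h, 95 were higher at 4 h (89.6%), with a median log2 ratio of 0.74. Of the 73 such probes with an expressed gene only downstream, 58 were higher at 4 h (79.5%). The corresponding median was 0.44 for the 73 probes with an expressed gene only downstream, 0.52 for all silent probes and 0.20 for all probes. Between 4 h and 32 h the median was 0.44 for 44 members, of which 30 were higher at 4 h. It was -0.02 for 42 probes with an expressed gene only downstream, of which 21 were higher at 4 h. The median was 0.12 for all silent probes and 0.16 for all probes. The scaling shifts all ratios between 2 arrays by the same amount. Before scaling, the 4 h array stood against the control at -0.28 by its 75th percentile and at 0.08 by its median. The 20 h array stood at 0.33 and 0.23, and the 32 h array at 0.18 and 0.15. Scaling by the median would thus lower these ratios, and the counts were not taken under other scalings.

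**Figure D2:**
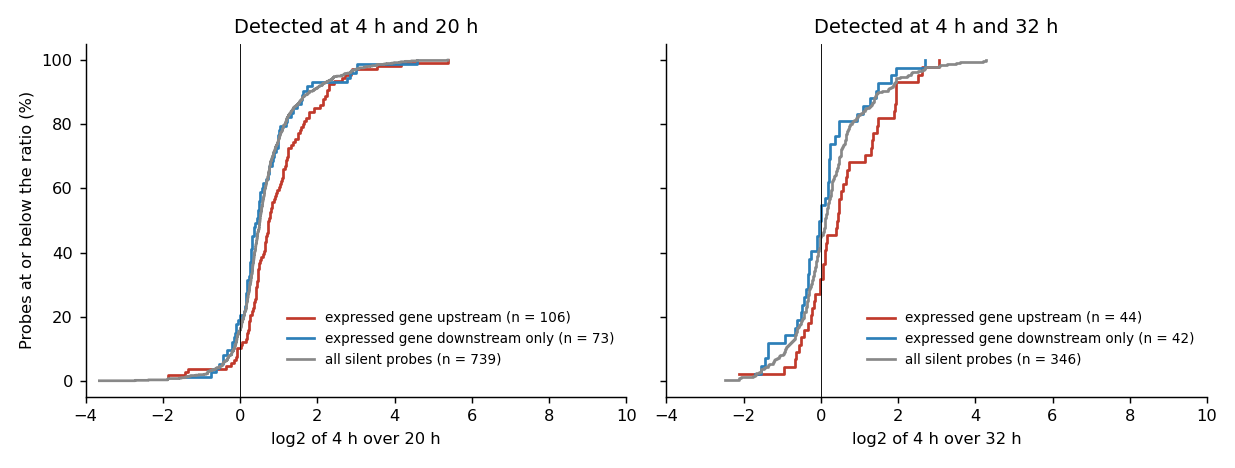
Cumulative percent of probes against the log2 ratio of the 4 h array over the 20 h array (left) or the 32 h array (right), for probes silent on the control and detected at both hours. The median of probes with an expressed gene upstream is 0.74 against 20 h and 0.44 against 32 h, beside 0.44 and -0.02 for those with an expressed gene only downstream, and the curves cross at their ends.

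Of the 153 members that rose, 68 reached 4-fold and 20 reached 8-fold, with a median bound of 3.70-fold. At 4 h only, 99 of them were well above background, 46 were still detected at 20 h and 25 at 32 h. At 4 h, 144 were at least 2-fold above 20 h and 138 above 32 h, and 133 above both. These members were chosen by a high 4 h signal, so such counts follow in part from the choice. They do not set the members apart from other silent probes that rose. The 153 members carried 149 names behind 148 upstream genes. All 1623 members carried 1507 names behind 1401 upstream genes, so few rises could share an upstream gene. Of 94 upstream genes with more than 1 member gene behind them, 1 had more than 1 that rose, where 9.43% of all members rose. Of 28 members that rose and had a further silent probe of another gene downstream, 1 was followed by a rise there (3.57%). This was Slc25a34 behind Plekhm2, with Tmem82 next in line. Of 252 members that did not rise and had such a probe, 16 were followed by a rise (6.35%). Across 16 blocks of the array surface the share that rose ranged from 6.09% to 14.3%.

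The share that rose was lowest next to the upstream probe. Within 2 kb of the upstream probe 3 of 141 members rose (2.13%), from 2 to 5 kb 16 of 221 (7.24%), from 5 to 10 kb 44 of 420 (10.5%) and from 10 to 20 kb 90 of 841 (10.7%). On the downstream side the shares were 6.98%, 9.04%, 6.81% and 7.11% over the same distances. Here and in the splits below, the 314 probes with expressed genes on both sides count on each side, except where only 1 side is named. Within 5 kb the order of the sides was turned. Where the expressed gene was only upstream 13 of 300 rose there (4.33%), and where it was only downstream 17 of 199 (8.54%). From 5 to 20 kb the shares were 11% and 6.27%. The nearest pairs held many probes without a gene that could be named: within 2 kb, 121 of 141 pairs had a name that did not match the RefSeq table, beside 309 of 841 from 10 to 20 kb. Among pairs with both names matched, the shares within 5 kb were 11.4% of 105 upstream pairs and 11.6% of 69 downstream pairs, and from 5 to 20 kb 13.0% of 762 and 8.19% of 696. The limit of 20 kb was no edge in the data: 12.6% of 183 members from 18 to 20 kb rose, 13.8% of 174 silent probes from 20 to 22 kb, and 9.23% of 1581 from 20 to 40 kb.

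The share that rose went with the signal of the upstream probe on the control. In the lowest quartile of that signal it was 5.15%, in the next 2 quartiles 9.65% and 9.63%, and in the highest 13.3%. The downstream side gave 6.30%, 6.07%, 6.05% and 10.6%. Signals of different probes also differ by how well each probe binds, so these quartiles order the genes only roughly. The upstream probes themselves split evenly at 4 h, with 145 that rose at least 2-fold and 147 that fell. This is 8.93% and 9.06% of the members, beside 8.36% and 9.26% of all probes expressed on the control. Behind upstream probes that rose, 29 of 145 members rose (20.0%), behind those that moved by less than 2-fold 112 of 1331 (8.41%), and behind those that fell 12 of 147 (8.16%). The downstream side gave 15.6%, 6.48% and 7.34%. Of the 153 members that rose, 112 stood behind genes whose own probe had moved by less than 2-fold, as did 1331 of all 1623 members. Across the 378 members with a bound and a detected upstream probe at 4 h, Spearman's rho of the bound was 0.12 with the ratio of the upstream probe, 0.094 with its signal at 4 h and 0.19 with distance. These are descriptions over probes of the same arrays, which are not replicates.

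The share also went with the member's own signal on the control. In the 3 lower quartiles of silent probes 5.34%, 4.75% and 6.13% of members rose, and in the highest quartile, which begins at -6.13, 17.9%. Levels below detection hold surrogate values and have no sure order, so these quartiles are a rough split. The same quartiles gave 3.85%, 4.49%, 4.35% and 13.2% where the expressed gene was downstream, and 3.35%, 1.86%, 2.75% and 10.1% with one on neither side. Members were above the other classes in each quartile, and 520 of the 1623 lay in the highest. A silent probe need not mean a silent gene. For 224 members (13.8%) another probe of the same name was well above background on the control, and 18 of these rose (8.04%). Among probes of this kind, 8.67% of 150 with an expressed gene only downstream and 5.64% of 1896 with one on neither side rose. Among members whose name had no probe above background there, 135 of 1399 rose (9.65%), beside 6.37% of 926 such probes with an expressed gene only downstream and 4.24% of 13526 with one on neither side. Of 111 names with several member probes, all of them rose for 4 names, some for 20 and none for 87. The order of the sides depended on the kind of name. For probes with a gene symbol in the RefSeq table it was that of all members: 12.8% of 831 such members rose, 7.53% of 624 with an expressed gene only downstream and 4.87% of 9442 with one on neither side. For probes with an accession, a clone or another unmatched name, which made up 35.4% of the members, the sides were close and turned: 5.04% of 575 members rose, beside 4.39% of 478 with an expressed gene only upstream and 5.23% of 344 with one only downstream. Where RefSeq placed both genes in tandem with none between them, 95 of 673 members rose (14.1%) and 53 of 612 on the downstream side (8.66%).

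**Figure D3:**
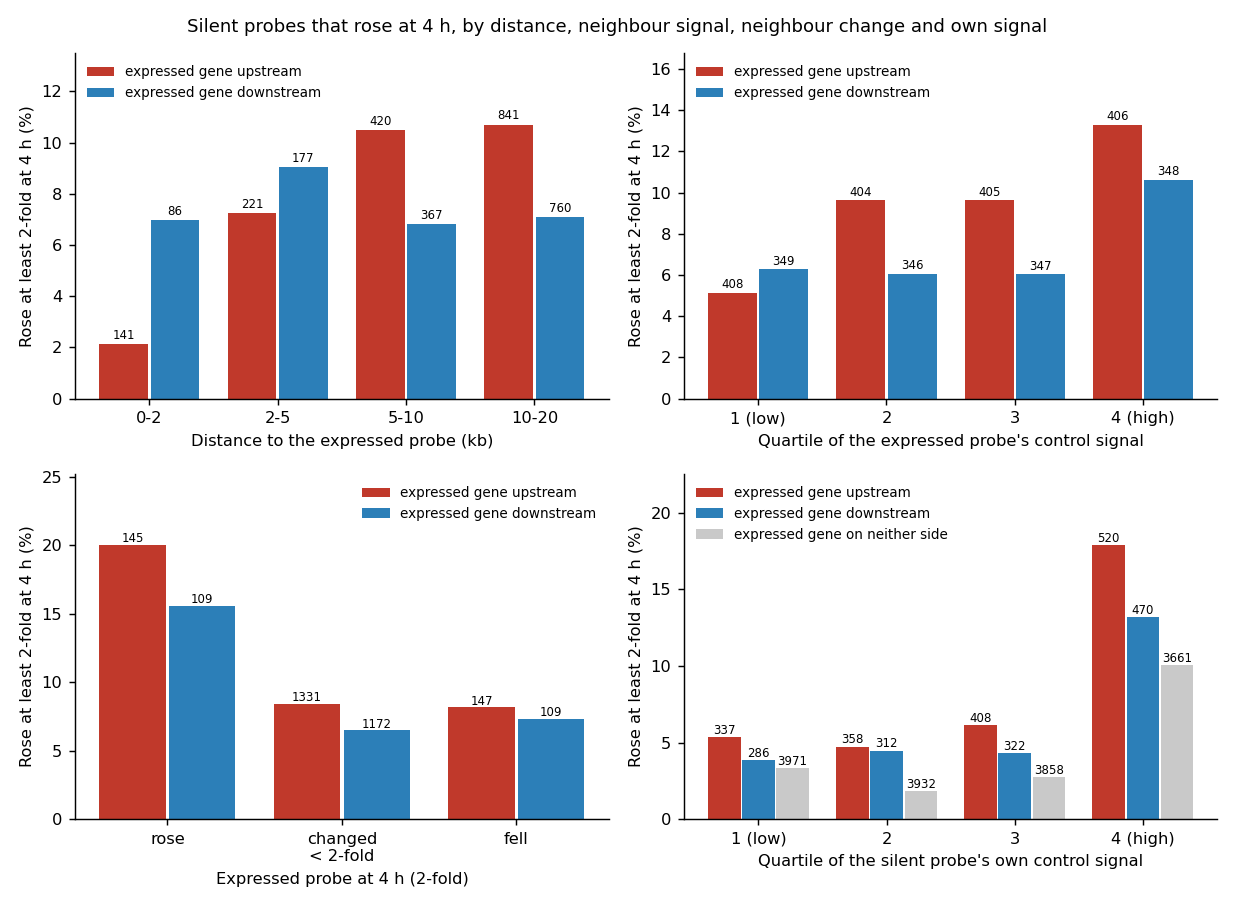
Percent of silent probes that rose at least 2-fold at 4 h, with the number of probes over each bar, for an expressed gene upstream (red), downstream (blue) or on neither side (grey), by distance, by the expressed probe's control signal, by its change at 4 h, and by the silent probe's own control signal. The upstream share is 2.13% within 2 kb and 10.7% from 10 to 20 kb, and the highest bar in the panel of own signal is 17.9%. The 314 probes with expressed genes on both sides count in both the red and the blue bars.

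The highest rise was that of 2610528A11Rik, which codes for a small secreted peptide, 18.8 kb behind Ghitm, a gene for a protein of the inner mitochondrial membrane. Its signal was -5.53 on the control, 0.92 at 4 h, -5.68 at 20 h and -4.99 at 32 h, and it was well above background at 4 h only. This is a rise of at least 51.4-fold over the control, and the 4 h array stood at least 65.4-fold above 20 h. Ghitm gave 2.83 on the control, 3.89 at 4 h, 2.76 at 20 h and 2.82 at 32 h, a ratio of 2.08 at 4 h. The size of such bounds depended on the background correction: with normexp in place of the scanner's subtraction, the log2 bound of 2610528A11Rik was 3.99 against 5.68, and over the 8 highest members the range was 2.57 to 3.99 against 3.93 to 5.68.

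Amhr2 codes for the type 2 receptor of anti-Müllerian hormone and lay 18.4 kb behind Sp1, a widely expressed transcription factor. It gave -5.07 on the control, 0.63 at 4 h, -4.76 at 20 h and -5.30 at 32 h, which is at least 41.9-fold over the control at 4 h. Sp1 moved by less than 2-fold, with 1.28 on the control and 1.33, 1.38 and 1.18 after the pulse. A further expressed gene lay downstream of Amhr2, so this member was not one of the upstream-only class. The same held for Spem1, 1700019N12Rik, 2310002J15Rik, Gm129, 5033406O09Rik and Fitm1, which are named below.

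Klhl30, a member of the Kelch-like family, lay 13.9 kb behind Espnl, a gene related to the actin-bundling protein espin. Its signal went from -4.88 on the control to -0.21 at 4 h and was below detection at 20 h (-5.44) and 32 h (-5.54), a rise of at least 23.4-fold. The Espnl probe moved from -0.61 to -0.02 at 4 h and stood at -0.67 and -0.69 later.

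Zbtb32, a zinc finger repressor of lymphocytes, lay 13.35 kb behind Upk1a, a uroplakin of the bladder lining. Its signals were -4.73 on the control, -0.27 at 4 h, -4.44 at 20 h and -4.56 at 32 h, at least 22.1-fold over the control at 4 h. Here the upstream probe rose too, from -0.24 to 1.08, a ratio of 2.50, and was back at -0.32 at 20 h and -0.30 at 32 h.

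Fut7 makes selectin ligands on leukocytes and lay 16.8 kb behind Npdc1, a gene first described in neural cells. Its signal was -5.82 on the control, -0.76 at 4 h, -5.54 at 20 h and -5.40 at 32 h, a rise of at least 16-fold. Npdc1 was bright and moved by less than 2-fold on all 4 arrays, from 5.06 on the control to 5.25 at 32 h, with a ratio of 1.05 at 4 h. This pair had the brightest upstream probe among the 8 highest rises. A second Fut7 probe was detected at 4 h only as well (-4.53), but with a bound of 1.17-fold, so the probes of this gene disagreed in size.

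Lman1l, a lectin related to the cargo receptor Lman1, lay 19.8 kb behind Csk, the kinase that holds Src kinases inactive. It gave -5.52 on the control, -0.78 at 4 h, -6.64 at 20 h and -5.68 at 32 h, at least 15.8-fold over the control. Csk had a ratio of 0.822 at 4 h. Another Lman1l probe was above background on all 4 arrays and went from -3.17 on the control to -2.42 at 4 h, so this gene was not silent throughout its length.

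AI854703 lay 10.9 kb behind Zfp775, a zinc finger gene, and kept a signal at the later hours. Its values were -4.74 on the control, -0.77 at 4 h, -3.20 at 20 h and -2.72 at 32 h, bounds of 15.6-fold, 2.90-fold and 4.05-fold. Zfp775 had ratios of 2.63 at 4 h, 1.70 at 20 h and 1.78 at 32 h. A second AI854703 probe was detected at 4 h only, with a bound of 1.44-fold.

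A3galt2, the enzyme that makes isoglobotriaosylceramide, lay 16.4 kb behind Phc2, a polycomb subunit. Its signal was -5.31 on the control, -0.83 at 4 h, -5.23 at 20 h and -5.37 at 32 h, a rise of at least 15.2-fold. A second A3galt2 probe rose too, by at least 2.05-fold. The Phc2 probe had a ratio of 1.89 at 4 h and 0.825 at 20 h. Across these 8 pairs, which were chosen by their rise at 4 h, 7 members were back below a 2-fold rise at 20 h and 32 h. At 4 h, 3 of the upstream probes had risen at least 2-fold.

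Among members with matched RefSeq names, the 4 that rose nearest to their upstream probe had bounds on either side of the median of all members that rose (3.70-fold). Nrn1l, a relative of neuritin, lay 1.80 kb behind Edc4, a scaffold of mRNA decapping, and went from -5.22 on the control to -3.28 at 4 h, -4.90 at 20 h and -4.95 at 32 h, at least 2.79-fold at 4 h. Spem1, needed for the shaping of spermatids, lay 2.02 kb behind Nlgn2, an adhesion protein of inhibitory synapses, and gave -6.39, -3.01, -7.35 and -5.84, at least 3.38-fold. Prr22 lay 2.06 kb behind Dus3l, a tRNA-modifying enzyme, and gave -5.45, -2.63, -4.88 and -5.21, at least 4.36-fold. The upstream probes of these 3 pairs moved by less than 2-fold at 4 h. 1700019N12Rik (now Catsperz, of the sperm calcium channel) lay 3.29 kb behind Kcnk4, a potassium channel gene, and gave -4.73, -2.77, -4.95 and -4.89, at least 3.90-fold at 4 h.

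**Figure D4:**
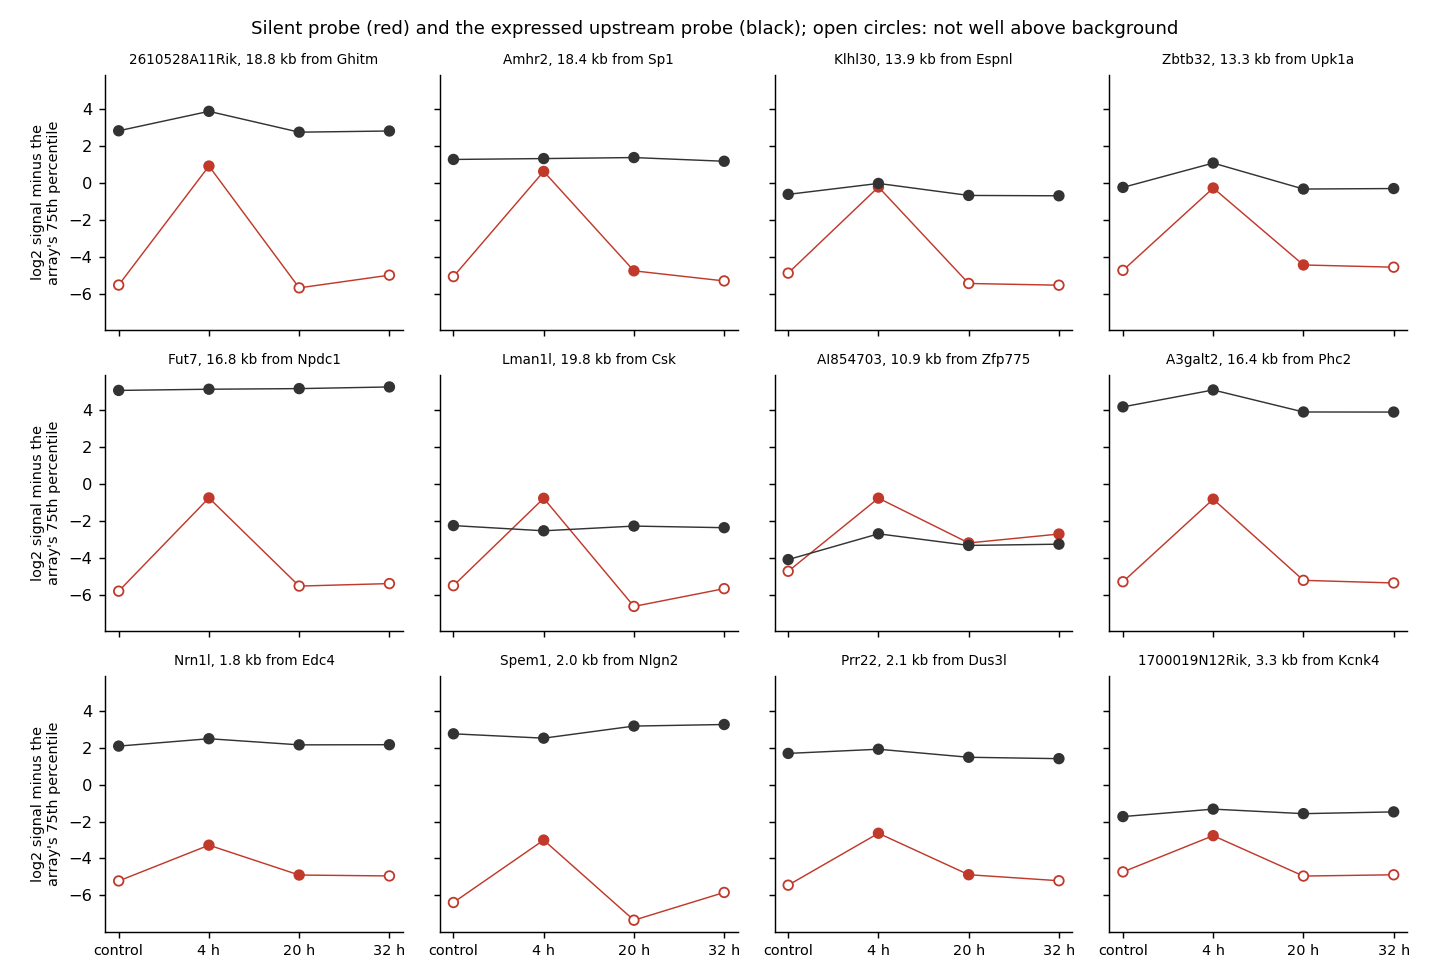
Log2 signal minus the array's 75th percentile on each of the 4 arrays for the 8 members with the highest rise at 4 h and the 4 nearest members that rose (red), each with its expressed upstream probe (black). Filled circles are well above background and open circles are not, and heights are to be compared within a probe; 2610528A11Rik goes from -5.53 to 0.92 and back to -5.68 while Ghitm goes from 2.83 to 3.89 and back to 2.76.

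Members also lay behind some of the brightest upstream probes without rising. 2310002J15Rik (now Cysrt1), 5.97 kb behind Ndor1 with 1 other RefSeq gene between them, was detected at 4 h only, at -4.49, with a bound of 1.2-fold.

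A pair of members behind such probes was not detected on any array. Gm129 is now Ciart, a repressor within the circadian clock, and lay 5.42 kb behind BC028528. It gave -5.85 on the control, -4.90 at 4 h, -5.37 at 20 h and -6.54 at 32 h. The last 30 bases of the BC028528 probe shared a run of 15 bases with 4 other probes and with 33 promoters of the RefSeq table, and the part of other transcripts in its signal was not tested. Ctla4, the T cell checkpoint receptor, lay 13.5 kb behind Rpl18-ps1 and stayed between -7.35 and -6.57.

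A few members rose at the later hours. 5033406O09Rik, 19.3 kb behind 2010107E04Rik (now Atp5mpl, of the ATP synthase), had -6.70 on the control, -4.26 at 4 h, -2.40 at 20 h and -4.23 at 32 h, at least 5.14-fold at 20 h. RefSeq lists 1 other gene between this pair. Fitm1, a lipid droplet gene of muscle, lay 5.97 kb behind Dcaf11 and was detected at 20 h only, at -2.89, at least 3.64-fold over the control. The muscle markers Myh6, Myod1 and Des were below detection on every array. Mslnl, related to mesothelin, lay 17.3 kb behind Rpusd1 and was detected at 4 h (-1.94) and at 32 h (-2.38) but not at 20 h (-6.60), with bounds of 7.04-fold and 5.22-fold. Mmp27, a matrix metalloproteinase, lay 5.12 kb behind its relative Mmp8 and was detected at 32 h only, at -2.49, at least 4.84-fold. A second Mmp27 probe was detected at 4 h only, at -4.57.

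Of 50 listed stress genes on the array (among them heat shock, antioxidant, immediate early, NF-kappa-B and clock genes), Junb and Hspa8 stood upstream of a member, each with 1. Rnaseh2a, a subunit of the RNase that removes RNA from DNA hybrids, lay 10.2 kb behind Junb and was not detected at 4 h (-4.91 on the control, -5.22 at 4 h), while Junb went from -2.76 to -1.92, a ratio of 1.79. RefSeq lists 1 other gene between Junb and Rnaseh2a. The 4 other Rnaseh2a probes were above background on all arrays and had ratios of 0.601 to 0.976 at 4 h. XM_003084785 lay 17.4 kb behind the chaperone gene Hspa8 and rose from -5.62 to -3.60, at least 2.23-fold.

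Some members rose behind genes that fell. Arl5c, a small GTPase of the Arf family, lay 15.5 kb behind Cacnb1, a calcium channel subunit, and gave -6.56 on the control, -2.66 at 4 h, -6.72 at 20 h and -6.49 at 32 h, at least 4.30-fold at 4 h. A second Arl5c probe was not detected on any array. The Cacnb1 probe fell from -2.88 to -4.15 at 4 h, a ratio of 0.415. Psors1c2 lay 3.77 kb behind Cchcr1 and went from -5.26 to -3.13 at 4 h, at least 3.11-fold, while Cchcr1 fell from -0.53 to -1.87, a ratio of 0.397.

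High rises were also found in front of expressed genes. Slc8a2, a sodium-calcium exchanger of the brain, had its expressed neighbour Meis3 18.5 kb downstream and none upstream. It went from -4.80 on the control to -0.16 at 4 h, -4.74 at 20 h and -4.40 at 32 h, at least 24.2-fold. Stab1, a scavenger receptor of macrophages and sinus endothelium, stood 10.4 kb in front of 2010107H07Rik (now Smim4) and went from -6.73 to -0.31 at 4 h, at least 21.9-fold. Tcp10a stood 0.43 kb in front of its near relative Tcp10c and rose at least 10.7-fold, while the Tcp10c probe rose 2.54-fold. The RefSeq table, of a later build, lists 119 genes between them, so the array's positions and RefSeq do not place this pair alike. Another Tcp10a probe was above background on the control and rose 11.9-fold at 4 h. Whether each of these probes binds the transcript of the other gene was not tested.

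The genes that end transcripts were examined as a list of 41, with cleavage and polyadenylation factors, Xrn2 and the Integrator complex. At 4 h, 4 had risen at least 2-fold, beside 11.1% of all gene names, and 3 had fallen, beside 8.27%. The median log2 ratio of the list was 0.17 and that of all gene names 0.17. Cpsf6, a part of cleavage factor I, went from -0.24 on the control to 1.55 at 4 h, -0.17 at 20 h and -0.23 at 32 h. Cstf3, a cleavage stimulation factor, had a log2 ratio of 1.59 at 4 h, the poly(A) binding protein gene Pabpn1 1.03 and Rbbp6 1.5. The Integrator subunits Ints3 and Ints4 fell by 1.13 and 1.19 on the log2 scale, and Ints2 was no longer detected at 4 h. Cpsf3, the endonuclease that cuts the RNA, had a log2 ratio of -0.34, and Xrn2 0.23. At 20 h and 32 h none of the 41 had moved by 2-fold. With 1 array per condition these counts have no test.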

How the data were processed

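Total RNA of NIH-3T3:Per2-Luc cells was labelled with Cy3 and hybridised to 1-colour Agilent Mouse GE 4x44K v2 arrays, 1 per condition, all on 1 slide. Per the file headers and labels, the authors' scanner files were made with Agilent Feature Extraction 10.7.3.1. The deposited intensity values used were the processed signals, background-subtracted and detrended, with values near background replaced by surrogates, so levels below detection have no order. Detection flags and probe coordinates (mm9) came from the same deposited files. A deposited table of intensity values equalled the processed signals divided by 1 constant per array.

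Outlier-flagged spots were left out, spots of a probe were averaged and 2 probes without a usable spot were dropped. Where a probe had several spots, 50% of them had to carry the flag for detection. Signals were log2 transformed and each array's 75th percentile was subtracted. On this scale the median of probes detected on both arrays was 0.17 at 4 h over the control. Against the control, the 75th percentile of the 4 h array stood at -0.28 before scaling and its median at 0.08. A ratio to an undetected value was a bound.

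The study's methods name a significance analysis of paired arrays; with 1 array per condition no test was run here. Shares, medians and counts are descriptions, and the number of arrays limits their precision. The members, gene lists and rules were chosen with earlier results of these data known. Named pairs, with both names in RefSeq, were the 8 highest rises at 4 h, the 4 nearest that rose, the 4 with the brightest upstream probes (1 of which is not reported here), 2 each with the highest rise at 20 h and 32 h, those behind a stress gene, 3 downstream-only rises, and 2 rises behind genes that fell; XM_003084785, AV284310, Ifna2, Slc25a34 and those of the closing section were chosen after their values were seen. Names were matched to RefSeq (GRCm38.p6, used for names and gene order only) for 31130 probes with a position; of 24495 with a strand there, 168 differed from the array's, and the array's strand was used where RefSeq gave none. The steps were tested on simulated data. Python 3.11.15, pandas 2.3.3, scipy 1.17.1 and, for the normexp alternative, limma 3.58.1 in R 4.3.3 were used. 17 alternatives were tried.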

Additional observations from a re-analysis of the deposited data

How the results depend on the processing

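No paired analysis was possible because each condition had 1 array. Of the settings tried, 16 gave a share of members that rose at 4 h to set beside all silent probes. It was above theirs in all 16, by a ratio of 1.06 with neighbours within 5 kb and 1.56 to 2.36 otherwise (1.90 as reported). The excess of the upstream-only over the downstream-only side at 4 h (2.78 points) was above 0 in 16 of 17 settings and -3.36 points within 5 kb. It was 1.53 at 3-fold, 1.62 with normexp, 1.81 with spike-in scaling, 1.86 with quantile normalization, 1.89 with 1 probe per name and 1.95 with median scaling. It was 6.73 with the weaker detection flag (signal significant over background) and 5.80 with both names matched to RefSeq, and the cause of these shifts was not tested.

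The share of members that rose at 4 h (9.43%) was 6.84% with median scaling, 6.84% with quantile normalization, 6.65% with spike-in scaling from 7 probes, 7.21% without scaling, 4.87% with normexp, 31.3% with the weaker flag, 14.7% at 1.5-fold, 5.79% at 3-fold, 24.6% by detection alone, 5.25% within 5 kb and 12.8% with both names matched. The 20 h share (1.17%) was 0.246% with normexp, 5.91% with the weaker flag, 1.85% at 1.5-fold, 0.555% at 3-fold, 10.3% by detection alone and 1.93% within 5 kb. The 32 h share (1.05%) was 7.39% with the weaker flag, 2.53% at 1.5-fold, 4.74% by detection alone and 0.552% within 5 kb. The difference of the sides at 20 h (0.20 points) was -0.019 with median scaling, -0.457 without scaling, -0.437 with the weaker flag, -0.692 at 1.5-fold, -1.56 by detection alone, 1.63 within 5 kb and -0.079 with both names matched, so it had no settled direction. At 32 h (-0.98 points) it was -3.35 with the weaker flag, -2.74 by detection alone, -0.33 at 3-fold and -0.13 with normexp.

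The 22 named pairs with a bound past 2-fold as reported were tried under 9 settings, without 2310002J15Rik, whose bound was 1.2-fold. Of their 198 values 194 stayed past 2-fold, but 87 moved by more than the spot error, among them all 22 with normexp. The 4 others, Nrn1l, 1700019N12Rik, Fitm1 and Psors1c2, were between 0.94 and 0.98 on the log2 scale with normexp. The arrays limit all values: a member under the detection line has only a bound, and nothing measures the spread between cultures.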

Other observations

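The members below, all of which rose at 4 h, were chosen after their values were seen. They stand for no list, and their bounds are descriptions. Lat2, an adaptor of B cells and mast cells, lay 19.4 kb behind Eif4h and went from -4.68 on the control to -0.84 at 4 h, -3.71 at 20 h and -3.90 at 32 h, at least 14.4-fold at 4 h. Icam2, an adhesion molecule of endothelium and leukocytes, lay 19.9 kb behind Ern1, a sensor of unfolded protein, and gave -6.39, -1.29, -7.43 and -7.05, at least 11.1-fold. Of the endothelial markers, Pecam1 was above background on all 4 arrays and Cdh5 on 3, and their part in the signal of Icam2 was not tested. Ptcra, a chain of the pre-T cell receptor, lay 19.7 kb behind Rpl7l1 and gave -6.75, -1.70, -7.15 and -6.66, at least 8.34-fold. Cd79b, of the B cell receptor, lay 7.80 kb behind Scn4a and gave -6.78, -2.06, -7.19 and -6.70, at least 6.49-fold. Of these 4, all but Lat2 were detected at 4 h only. The blood markers Ptprc and Hbb-b1 were below detection on all 4 arrays and Cd68 was above it on all 4. For Zap70, a T cell kinase, 1 of its 2 member probes rose (at least 4.46-fold) and the other did not (1.83-fold).

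Foxj1, the regulator of motile cilia, lay 5.78 kb behind Rnf157 and went from -6.58 to -2.03 at 4 h, at least 6.63-fold, and was below detection at 20 h (-7.42) and 32 h (-7.03). Aoc3 lay 9.55 kb behind its relative Aoc2 and went from -6.59 to -1.26, at least 11.3-fold, while another Aoc3 probe was above background on all arrays with a ratio of 1.22 at 4 h. Cyp27b1, which activates vitamin D, lay 7.48 kb behind Mettl1 and went from -5.30 to -1.90, at least 7.27-fold. Wdr13 lay 13.0 kb behind the cold-inducible gene Rbm3 and went from -4.68 to -0.88, at least 14-fold, while another Wdr13 probe was bright on all arrays and gave 2.24 on the control and 2.24 at 4 h. Names that begin with Olfr, Vmn, Krtap, Defb, Taar, Csn or Cyp2 were counted as a set, meant for families not expected in fibroblasts. These letters also match genes outside such families, so the set is mixed, and Cyp27b1 falls in it by its name. It held 58 of the members, of which 4 rose (6.90%), beside 1.68% of 1547 silent probes with such names.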
